A study of Arabidopsis thaliana with 12 samples.

Results

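The introns described here are 404 intron bins whose retained fraction was 0% in wild-type (WT) Arabidopsis thaliana seedlings. All were listed for changed usage in prmt5-5, in picln-1 or in both. A bin is the piece of a gene that neighbouring annotated splice sites enclose, and reads were counted for each bin. The members were chosen by measured values: every intron bin in the authors' bin table for prmt5-5 or for picln-1 whose retained fraction was exactly 0 in WT was taken, 1 entry per bin. They made up 404 of 3481 intron bins listed in either table, and the 3077 other listed introns, all with a WT fraction above 0, served for comparison. Of the members, 396 stood in the prmt5-5 table and 14 in the picln-1 table, 6 of them in both.

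The seedlings carried the prmt5-5 allele of PRMT5, the picln-1 allele of pICln (also labelled pICln-1) or neither (WT, titled Col), with 4 libraries of polyadenylated RNA from each genotype. All grew at 22 °C for 10 days under 12 h of light and 12 h of darkness, a regime that the labels count for 9 days. Each gene was represented by a single mutant allele, so the mutation and any further difference of that line cannot be told apart. The labels do not say whether the 4 libraries are separate cultures. The series' design line speaks of cold, which no library's labels mention, and the labels were followed. The deposited retained fractions are pooled over the libraries of a genotype and carry no standard error, the depth behind them is unknown, and so a WT value of 0% has no upper limit that could be given. All retained percentages below are the authors' pooled values, read as percent of junction reads although no formula is given.

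Introns are removed by the spliceosome, which is built from small nuclear ribonucleoproteins (snRNPs), and the snRNP that carries U1 RNA pairs with the 5' splice site first. The Sm proteins form the ring at the core of most snRNPs. PRMT5 methylates arginines of Sm proteins, and pICln is the chaperone that holds Sm proteins before they are placed on the RNA. A retained intron keeps its sequence in the polyadenylated transcript, where it often brings a stop codon into the reading frame.

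The introns highest in prmt5-5, the 3 highest in picln-1 among those listed for picln-1 alone, and the highest in picln-1 among those listed in both mutants are shown so that their splice sites can be compared with the values that follow. They were read from RefSeq's TAIR10.1 assembly, on which 403 of the 404 bins (99.8%) had the start and end of an annotated intron. Each runs 5' to 3' with 3 exon bases before and 1 exon base after the intron. Capitals mark the 5' splice site, that is the last 3 exon and first 6 intron bases, and the 3' splice site (the last 3 intron bases and 1 exon base). Only the coding-sequence introns among them are printed, and of the long SQE6 intron only the 2 ends. This leaves out the 5' UTR introns of AT2G18770 and AT3G26990, among the highest in prmt5-5. It also leaves out that of AT1G61430, the highest in picln-1 among those listed in both mutants. The coordinates are those of the printed stretch, or of the whole intron with its flanking exon bases for SQE6.
PRMT5 intron 20 (chr4:15132629-15132727, minus strand): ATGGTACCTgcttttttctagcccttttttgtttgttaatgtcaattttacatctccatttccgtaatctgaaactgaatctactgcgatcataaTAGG
NTMC2T6.1 intron 3 (chr1:19997345-19997446, plus strand): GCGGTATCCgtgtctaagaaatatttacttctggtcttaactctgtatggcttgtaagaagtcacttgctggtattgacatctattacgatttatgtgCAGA
SK21 intron 3 (chr3:22724819-22724911, minus strand): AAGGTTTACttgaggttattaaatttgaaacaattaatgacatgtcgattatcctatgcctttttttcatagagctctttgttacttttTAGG
VPS35B intron 2 (chr1:28483519-28483606, minus strand): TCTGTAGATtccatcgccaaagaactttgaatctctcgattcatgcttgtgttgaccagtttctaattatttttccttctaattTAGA
AT1G12730 intron 1 (chr1:4334844-4334954, plus strand): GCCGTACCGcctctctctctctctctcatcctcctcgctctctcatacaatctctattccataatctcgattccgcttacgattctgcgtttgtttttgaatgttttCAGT
BAM2 intron 1 (chr4:222647-222722, plus strand): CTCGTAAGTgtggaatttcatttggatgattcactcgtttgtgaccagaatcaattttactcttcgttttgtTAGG
AT5G53020 intron 2 (chr5:21500827-21500917, plus strand): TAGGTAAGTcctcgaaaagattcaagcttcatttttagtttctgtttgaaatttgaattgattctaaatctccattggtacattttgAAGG
AT2G01690 intron 6 (chr2:312326-312423, minus strand): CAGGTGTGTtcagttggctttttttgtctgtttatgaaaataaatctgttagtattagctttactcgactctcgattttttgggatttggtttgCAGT
SQE6 intron 1, start (chr5:8185935-8186406, minus strand): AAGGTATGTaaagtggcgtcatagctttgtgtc
SQE6 intron 1, end: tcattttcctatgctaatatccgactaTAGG

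Retention of the 404 introns was modest in prmt5-5 and small in picln-1. Junction reads retained the median intron at 9.81% in prmt5-5 (95% order-statistic interval over the introns 9.39 to 10.9%) and 1.52% in picln-1 (1.33 to 1.8%), with 0% in WT by the rule. The other listed introns had medians of 15% in prmt5-5, 5.66% in picln-1 and 3.03% in WT. Measured as the difference from WT, the medians were 9.81 percentage points for the members and 10.9 for the other listed introns in prmt5-5, and 1.52 and 1.82 points in picln-1. Both mutants were set against the same WT libraries, and a member could only lie at or above WT, so the direction is no result. The share of 96.8% that was higher in prmt5-5 than in picln-1 (391 introns) is also largely set by the choice. So is the gap between the medians of the mutants, since 396 of the 404 came from the prmt5-5 table and 14 from the picln-1 table. Those 14 alone had medians of 3.68% in prmt5-5 and 8.93% in picln-1. Introns are not replicates, and no test was made over them.

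The number of members has to be read against what was tested. The prmt5-5 table lists 3335 bins with higher usage out of 118209 bins tested (2.82%), and that for picln-1 has 484 out of 112984 (0.428%). The rule used these contrasts, so the 396 and 14 members, all higher in usage, are not compared with those shares. Introns at 0% in WT were 12.3% of the 3232 intron bins listed for prmt5-5 and 2.89% of the 485 listed for picln-1. By the authors' deposited table, the adjusted p (Benjamini-Hochberg) was below 0.05 for 378 of the 396 and below 0.01 for 348 of them. In the authors' deposited table for picln-1 these counts were 11 and 10 of 14.

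**Figure D1:**
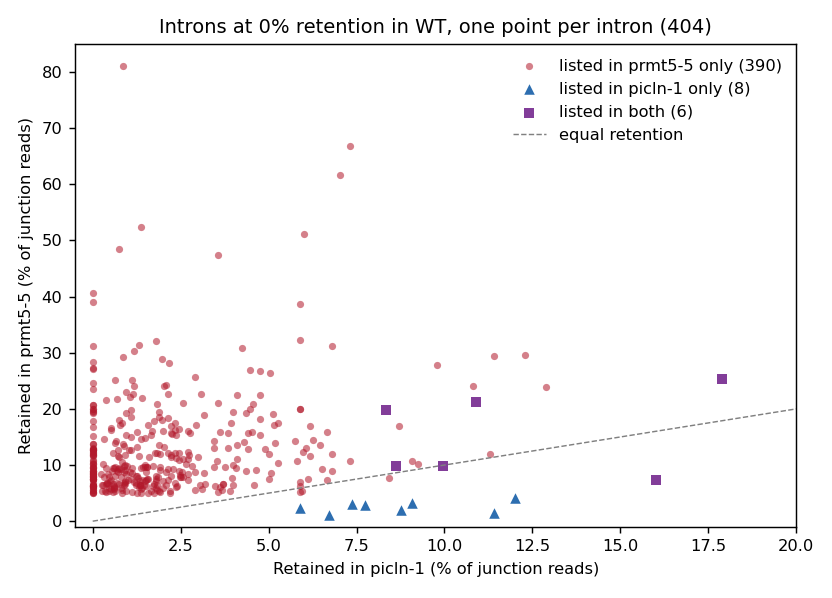
Each point is an intron with 0% retention in WT; the vertical axis gives its retained share in prmt5-5 and the horizontal axis that in picln-1, both in percent of junction reads, and the dashed line marks equal retention. Of the 404 introns, 391 lie above the line, and 74 stand at 0% in picln-1.

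The distribution in prmt5-5 had a long upper end, which the plot of retention in prmt5-5 against picln-1 shows. Above 10% were 195 introns (48.3%), above 20% were 57 (14.1%), above 30% were 17 (4.21%) and above 50% were 5 (1.24%). A group of 74 introns (18.3%) was at 0% in picln-1 as well as in WT. Their retention in prmt5-5 ran between 5.01% and 40.7% with a median of 9.88% (8.64 to 12%), close to the median of all members. Among members of the prmt5-5 table the lower end, set by the authors' limit of 5 percentage points on the change, was formed by AT3G10060 and EDM2 at 5% and AT4G14160 at 5.01% in prmt5-5. Just outside the WT limit stood SEP1 at 6.89% in prmt5-5, 0.363% in picln-1 and 0.075% in WT, and MTHFR1 at 8.59%, 0.649% and 0.0903% in the same order. VAB1 had 5.58% in prmt5-5, 0.894% in picln-1 and 0.161% in WT.

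The highest value belonged to the mutated gene itself. Intron 20 of 22 of PRMT5 (annotated as SKB1, AT4G31120), 95 bases in the coding sequence on the minus strand of chromosome 4, 15132630 to 15132724, had 81.0% of its junction reads retained in prmt5-5, 0.870% in picln-1 and 0% in WT. Its usage was higher by 5.51 on the log2 scale in prmt5-5 (adjusted p = 1.22e-26) in the authors' deposited table. No label describes the lesion of the prmt5-5 allele. PRMT5 was not listed for changed expression in either mutant.

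Next came a 225-base intron in the 5' untranslated region (UTR) of AT2G18770, which encodes a P-loop nucleoside triphosphate hydrolase, with 66.9% in prmt5-5, 7.32% in picln-1 and 0% in WT (adjusted p = 3.74e-34 for prmt5-5 in the authors' deposited table). NTMC2T6.1, a member of the calcium-dependent lipid-binding family, followed with intron 3 of 11 at 61.7% in prmt5-5, 7.04% in picln-1 and 0% in WT. Intron 3 of 9 of SK21, which encodes a SKP1-like protein of the ubiquitin ligase family, stood at 52.4% in prmt5-5 and 1.37% in picln-1. The 5' UTR intron of the ENTH/VHS gene AT3G26990 stood at 51.2% in prmt5-5 and 6.02% in picln-1. These 5 were the introns with over 50% of junction reads retained in prmt5-5, and none of them exceeded 7.32% in picln-1.

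The next ranks lay between 30% and 50% in prmt5-5. VPS35B, a subunit of the retromer that recycles receptors from endosomes, had 48.5% of junction reads retaining intron 2 in prmt5-5 and 0.752% in picln-1. Its relative VPS35C had 30.4% for intron 1 in prmt5-5 and 1.16% in picln-1. AT1G12730, a subunit of the enzyme that attaches lipid anchors to proteins (GPI transamidase), had 47.4% in prmt5-5 and 3.57% in picln-1. The ABC transporter gene ABCB2 had 39.1% in prmt5-5 and 0% in picln-1, and the callose synthase gene CALS1 38.6% and 5.88%. Among enzymes, AAE17, which encodes an acyl-activating enzyme, had 32.1% in prmt5-5 and 1.79% in picln-1. The PQ-loop membrane protein gene AT2G41050 had 32.2% in prmt5-5 and 5.88% in picln-1. A pair of plastid division genes were also above 30% in prmt5-5: SULA with 31.4%, against 1.33% in picln-1, and ARC3 with 30.8%, against 4.23% in picln-1. ARC3 and VPS35C were picked after their values were seen.

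**Figure D2:**
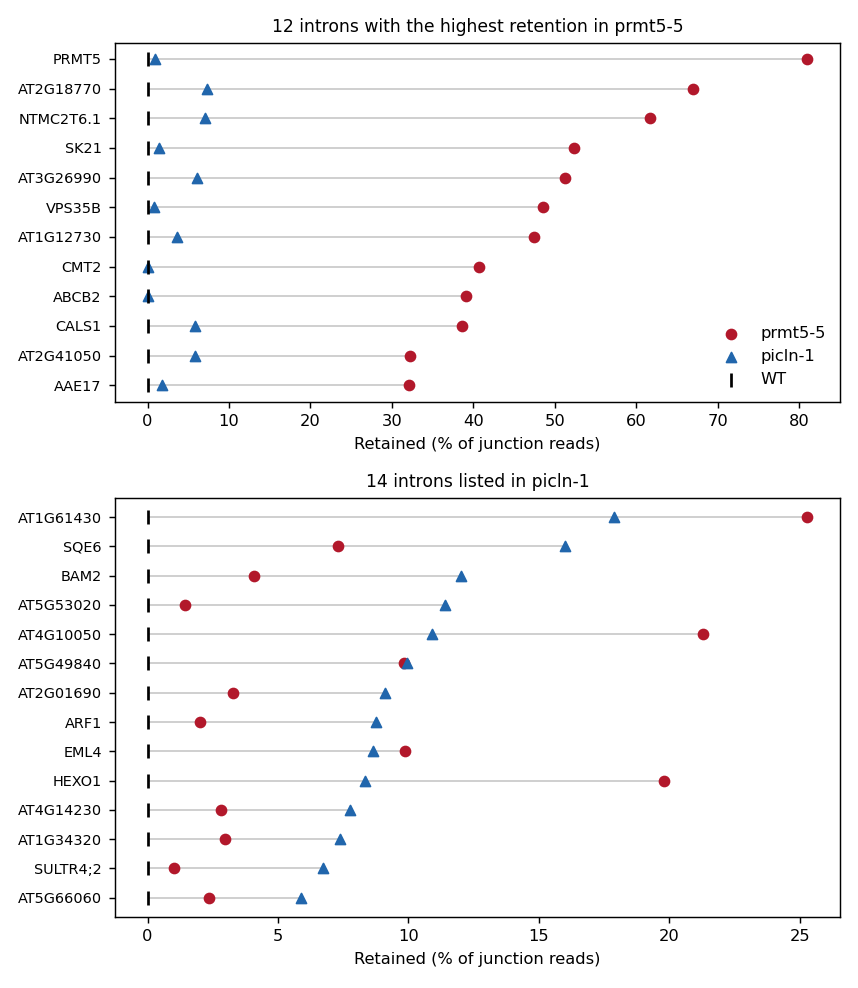
Retained share in percent of junction reads of single introns in prmt5-5 (circles), picln-1 (triangles) and WT (black ticks, all at 0%); the upper panel holds the 12 introns highest in prmt5-5 and the lower panel the 14 listed for picln-1. In the upper panel picln-1 stays at or below 7.32%, and in the lower panel 10 of the 14 introns are higher in picln-1 than in prmt5-5. Both are partly set by the choice, since the upper panel was ranked by prmt5-5 and 8 of the 14 were not listed for prmt5-5.

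The 8 smallest adjusted p-values for prmt5-5 included AT2G18770, AT1G12730 and SULA, described above, and introns with lower fractions. Intron 11 of 21 of AT5G08650, annotated as a small GTP-binding protein gene, had the smallest (2.04e-95 in the authors' deposited table), at 29.3% in prmt5-5, 0.870% in picln-1 and 0% in WT. SEX1, whose product phosphorylates starch before it is broken down, had 14.6% of intron 19 retained in prmt5-5 and 0.313% in picln-1 (adjusted p = 1.8e-59 for prmt5-5 in the authors' deposited table). The longest member, intron 3 of 8 of the glucomannan synthase gene CSLA02, had only 5.95% in prmt5-5 and 0.794% in picln-1, with an adjusted p of 7.07e-46 for prmt5-5 in the authors' deposited table. AT5G03430 (18.1% in prmt5-5, 0.752% in picln-1) and the methionine sulfoxide reductase gene MSRB3 (14.1% in prmt5-5, 4.30% in picln-1) were also among the 8 smallest.

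Usage and retained fraction are read here as different quantities, usage from all reads in a bin and the fraction from junction reads. The sources used give no formula for the fraction. Usage of the 396 members in the prmt5-5 table was higher than in WT by 1.25 to 8.54 on the log2 scale, with a median of 4.43 in the authors' deposited table. Under 2 on that scale were 21 members, the lowest of them MBR2 at 1.25, with 7.55% of junction reads in prmt5-5, 1.80% in picln-1 and 0% in WT (log2 value taken from the authors' deposited table). Without counts it cannot be said how many reads lay inside these introns in WT, where the retained fraction was 0%. For the 14 picln-1 members the log2 usage change ran between 1.75 and 6.24 with a median of 3.52 in the authors' deposited table.

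Of the members, 14 introns were listed for picln-1. Of these, 6 were listed in both mutants. The 5' UTR intron of the S-locus lectin kinase gene AT1G61430 was the highest of all members in picln-1, with 25.3% in prmt5-5 and 17.9% in picln-1. The squalene epoxidase gene SQE6 had 7.29% in prmt5-5 and 16% in picln-1, the Clp protease gene AT5G49840 9.83% and 9.96%, and the EMSY-like gene EML4 9.89% and 8.63% in the same order. The esterase gene AT4G10050 had 21.3% in prmt5-5 and 10.9% in picln-1. HEXO1, a beta-hexosaminidase that trims glycans, had 19.8% in prmt5-5 and 8.33% in picln-1. All 6 were at 0% in WT.

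The other 8 were listed for picln-1 alone, and each was below 5% in prmt5-5. BAM2, a beta-amylase gene, had 4.07% in prmt5-5 and 12.0% in picln-1. AT5G53020 had 1.42% in prmt5-5 and 11.4% in picln-1, and AT2G01690 3.29% and 9.09%. ARF1, which encodes an auxin response factor, carried the smallest adjusted p of the set (1.69e-28 for picln-1 in the authors' deposited table), with 2.03% of its 764-base 5' UTR intron retained in prmt5-5 and 8.77% in picln-1. AT4G14230 had 2.81% in prmt5-5 and 7.75% in picln-1, AT1G34320 2.98% and 7.37%, and the 3' UTR intron of AT5G66060 2.34% and 5.88%. SULTR4;2, whose product exports sulfate out of the vacuole, had 1.03% in prmt5-5 and 6.71% in picln-1. The difference between the mutants was not tested for any of them. The 8 were picked by a limit on the picln-1 change and by not being listed for prmt5-5. Values below 5% in prmt5-5 are therefore largely set by the choice.

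Some introns of the prmt5-5 table were also high in picln-1 without being listed there. Above 5% in picln-1 were 44 of them, and above 10% were 5. VCR, a varicose-like gene related to a decapping factor, had 23.9% in prmt5-5 and 12.9% in picln-1. AT2G15560 had 29.6% in prmt5-5 and 12.3% in picln-1, AT1G49840 29.5% and 11.4%, and the glycosyl hydrolase gene AT3G47000 11.9% and 11.3%. In all, 13 members were higher in picln-1 than in prmt5-5, and 5 of these stood in the prmt5-5 table. They are SQE6 and AT5G49840, given above, and AT2G21520 (5.41% in prmt5-5, 5.96% in picln-1), ckl10 (5.13%, 5.88%) and AT5G42660 (7.69%, 8.43%).

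The 5' splice sites of the members scored lower at the median than those of the unlisted introns in the same genes. Each site of 9 bases received a score in bits from the base frequencies of all 136227 annotated introns. The median score was 5.13 bits (4.76 to 5.45) for the members and 5.46 for the other listed introns, against 7.16 for the 4615 unlisted introns of the host genes and 7.02 for all annotated introns. The members therefore lay near the other listed introns. At the 3' splice site the medians were 8.34 bits for the members, 7.95 for the other listed introns, 8.03 for the unlisted introns of the host genes and 7.94 for all introns. GC content differed little, with medians of 33%, 33.1%, 33.3% and 32.8% for the same sets.

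Base by base, the members stood near the other listed introns on both sides of the boundary. The last exon base was G in 59.3% of members, 60.2% of other listed introns, 78.3% of the unlisted host introns and 76.2% of all introns. The exon base before it was A in 43.9% of members, against 48.6%, 66.3% and 63.1% in the same order of sets. Inside the intron, position +3 held A in 51.4% of members and T in 35.5%, against 52.7% and 32.1% in the other listed introns and 65.6% and 17.2% in all introns. Position +5 held G in 38.5% of members, 40.9% of other listed introns and 49.5% of all introns. Position +4 held T in 38.5% of members, 32.9% of other listed introns and 26.8% of all introns. In 401 members the intron began with GT and ended with AG, and EML4 and SEC8 began with GC, which the score counts as very weak.

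**Figure D3:**
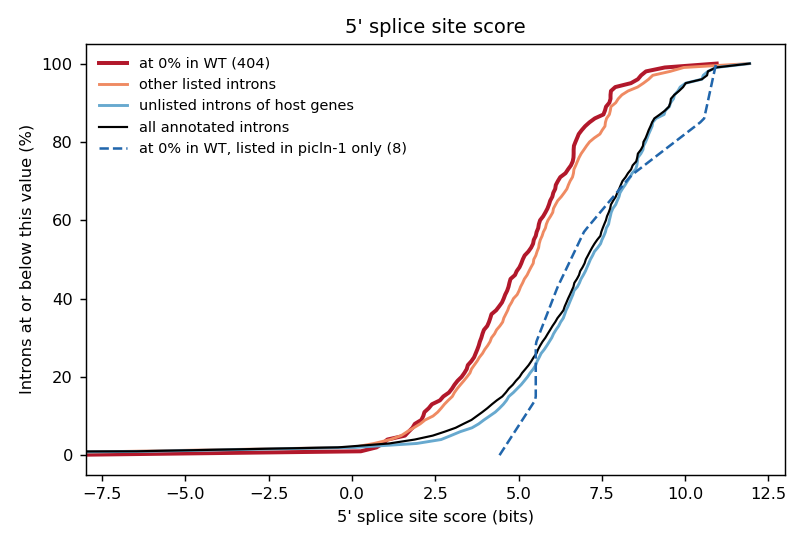
Cumulative share of introns (vertical axis, percent) at or below each 5' splice site score (horizontal axis, bits) for the members, the other listed introns, the unlisted introns of the host genes, all annotated introns and the 8 members listed for picln-1 alone. The curve of the members (median 5.13 bits) runs left of those of the unlisted host introns (7.16) and all introns (7.02) and close to that of the other listed introns (5.46).

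The sites printed above show both ends of this range. AT1G12730 had GCC before the boundary and a score of -2.50 bits, VPS35B TCT and 0.73 bits, and NTMC2T6.1 GCG and 3.30 bits. PRMT5 intron 20, with ATG before the boundary, scored 5.81 bits, and SK21, with AAG, 6.04 bits. Across the 17 members above 30% in prmt5-5, a limit set after the values were seen, the median score was 3.30 bits (1.76 to 5.13). In these the last exon base was G in 5 (29.4%, 10.3 to 56%). Among the 8 introns listed for picln-1 alone, the median score was 6.57 bits (4.43 to 10.93) and position +5 held G in 87.5%, against 37.5% of the members in the prmt5-5 table. The other listed introns of the picln-1 table had a median of 6.61 bits, with G at position +5 in 51.3%. BAM2 and SULTR4;2 shared the same 9 bases, CTCGTAAGT, which break the common letters on the exon side only. FEI2, listed for prmt5-5 alone (5.88% in prmt5-5, 0% in picln-1), has these 9 bases too. The 8 are too few for more than a description.

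Members were longer at the median than the other introns. Their median length was 124 bases (115 to 140), against 107 for the other listed introns, 103 for the unlisted introns of the host genes and 102 for all annotated introns. The range went from 64 bases in AT1G45332 to 1226 bases in CSLA02, with 131 members (32.4%) between 60 and 100 bases and 17 over 500. After CSLA02 the longest were SAB with 801 bases (15.7% in prmt5-5, 2.22% in picln-1), AT4G33440 with 777 (6.02%, 3.61%), ARF1 with 764 and AT1G32190 with 738 (7.46%, 5.00%). The shortest after AT1G45332 (13.2% in prmt5-5, 1.25% in picln-1) were BAM2 and AT5G27490 with 72 bases each and AT1G55690 and XIH with 73 each. The 17 members above 30% in prmt5-5 had a median of 100 bases and the 8 listed for picln-1 alone 90.5 bases.

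**Figure D4:**
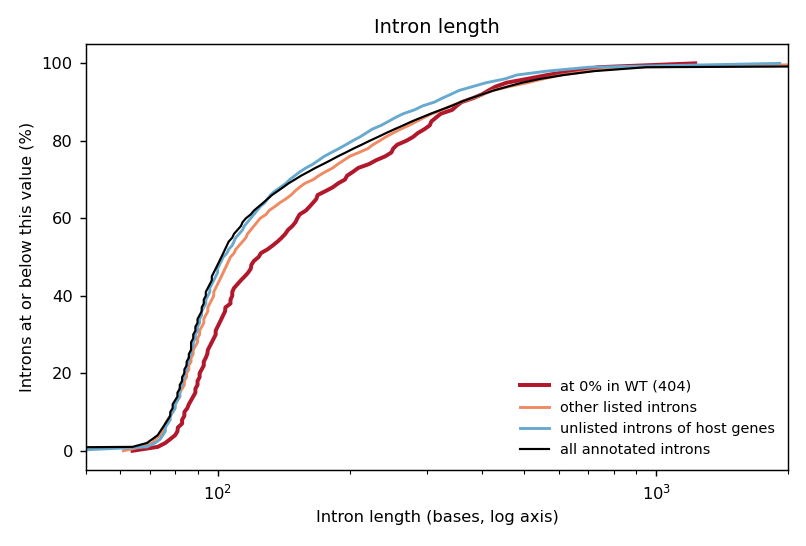
Cumulative share of introns (vertical axis, percent) at or below each length (horizontal axis, bases, log scale) for the members, the other listed introns, the unlisted introns of the host genes and all annotated introns. The curve of the members (median 124 bases) lies to the right of the others (medians 107, 103 and 102 bases) over most of the range.

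Most members interrupted coding sequence: 386 of 403 (95.8%), with 13 in a 5' UTR and 4 in a 3' UTR of the first annotated transcript that holds them. The shares in coding sequence were 94.5% for the other listed introns, 94.5% for the unlisted introns of the host genes and 87.6% for all introns. Translation running into the intron would meet an in-frame stop codon in 353 of the 386 (91.5%), at a median of 32 bases into the intron, against 91.3%, 88.9% and 89.0% in the other sets. In PRMT5 intron 20 the first such stop ended at base 92 of 95, and in ABCB2 at base 4. Of the 33 coding members with no stop, 12 had a length divisible by 3 and would keep the frame, among them VPS35B and PHYD. Over all members 34.4% had a length divisible by 3, against 33.2%, 32.5% and 33.2%.

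Members were gathered towards the 5' end of their transcripts and were scarce at the 3' end. Among transcripts with 3 or more introns, 45.3% of the members (40.3 to 50.4%, exact binomial 95% interval) lay in the third of the introns nearest the 5' end. The same share was 29.7% for the other listed introns, 34.1% for the unlisted host introns and 34.7% for all introns. In the third nearest the 3' end lay 15.9% of the members (12.4 to 19.9%), against 30.3%, 34.5% and 32.9%. The last intron made up 4.47% of the members (18 introns), 13.8% of the other listed introns, 8.97% of the unlisted host introns and 20.2% of all introns. The share of last introns is smaller where transcripts have more introns, and the host genes had more at the median than the other sets of genes. Only the unlisted host introns come from the same genes as the members. Members and other listed introns were parted by the WT fraction alone, and the depth behind each fraction is unknown. Whether this rule favours introns near either end, for example where few junction reads lie, was not tested. The place in the intron order was not recalculated under another WT limit. Of the 17 members above 30% in prmt5-5, a limit set after the values were seen, 14 lay in the third nearest the 5' end (82.4%, 56.6 to 96.2%).

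**Figure D5:**
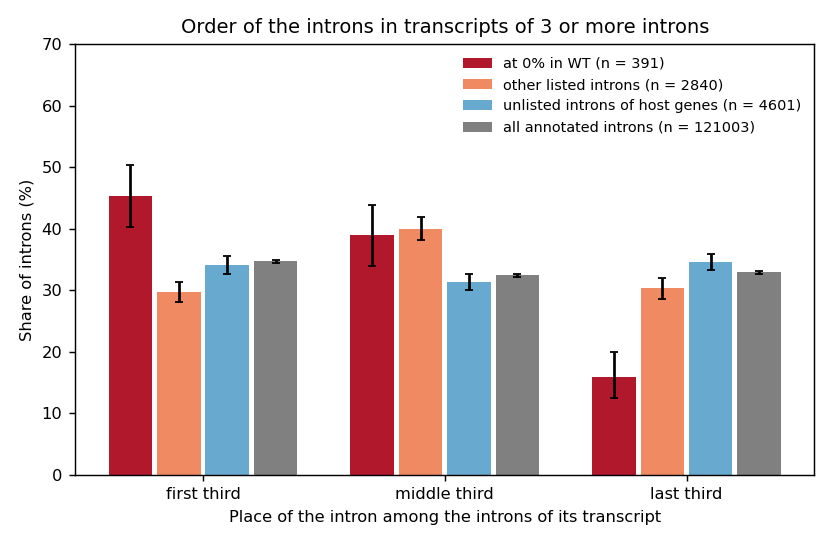
Share of introns (vertical axis, percent) by place in the intron order of their transcript (horizontal axis), for transcripts with 3 or more introns; bars stand for the members, the other listed introns, the unlisted host introns and all annotated introns, and error bars are exact binomial 95% intervals over introns. The members hold 45.3% in the part nearest the 5' end and 15.9% in the part nearest the 3' end, where each part is the third of the introns. Depth per intron is unknown, and an effect of the WT limit on these shares was not tested.

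The 404 introns lay in 388 host genes on all 5 chromosomes, and 143 of these genes (36.9%) also held another listed intron. Outside these hosts, 2242 genes held a listed intron, where 22245 coding genes have introns in all. The share of 36.9% was not matched for intron number or expression, and no enrichment was tested. The hosts had a median of 11 introns per transcript, against 8 for hosts of the other listed introns and 3 over all annotated genes with introns. A gene with more introns has more chances to hold a listed one. The gap to all genes is therefore partly set by the choice, and no weighting by intron number was made. A single member was found in 373 hosts, 14 had 2 and MEE44, a nucleotidyltransferase family gene, had 3. In MEE44 the adjacent introns 6, 7 and 8 had 11.8%, 8.77% and 24.7% in prmt5-5 and 2.75%, 1.52% and 0% in picln-1. A difference between these neighbours was not tested. TOR, the growth-controlling kinase, had 15.8% for intron 25 and 10.1% for intron 32 in prmt5-5, against 1.27% and 0% in picln-1. The myosin genes MYA1 (17.1% and 15% in prmt5-5, 2.94% and 1.08% in picln-1) and XI-I (16.7% and 12.6% in prmt5-5, 0% for both in picln-1) also held 2 each. These hosts with 2 were picked after their values were seen, and members of the same gene share its reads.

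By product name, metabolic enzymes were the largest class, with 73 of 388 hosts (18.8%), against 19.7% of the hosts of other listed introns and 17.2% of coding genes with introns. Kinases made up 9.54% of hosts, against 7.27% and 5.46%, and proteins of vesicle traffic and the cytoskeleton 4.90%, against 2.63% and 2.42%. Transcription factors made up 2.06%, against 5% and 5.14%. These classes were not matched for intron number or expression, and no enrichment was tested. Among the kinases, which were picked after their values were seen, the receptor kinase gene SARK had 26.9% in prmt5-5 and 4.48% in picln-1, and MEKK3 19.4% and 1.89%.

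Of 301 loci on 8 gene lists, among them lists of splicing, clock, flowering, light and chromatin functions, 12 held a member (3.99%), where 388 of 22245 coding genes with introns did (1.74%). The lists were not matched for intron number or expression, and they hold only the 301 loci found in the annotation for 351 symbols. The chromatin list had 4 of 58. CMT2, which methylates cytosines in heterochromatin, had 40.7% of intron 6 retained in prmt5-5 and 0% in picln-1, and CHB3 (SWI3D, a subunit of SWI/SNF remodelling complexes) 26.4% and 5.05%. CLF, the Polycomb histone methyltransferase, had 17.0% in prmt5-5 and 2.22% in picln-1, and DMS11 (MORC6, a silencing ATPase) 13% and 3.45%. In the spliceosome and snRNP assembly list, 29 of 66 symbols found no match, and 3 of the 37 matched loci held a member. They were PRMT5 itself, LSM1A (8.17% in prmt5-5, 2.47% in picln-1), and PRP40B, whose product is related to a U1 snRNP-associated protein (7.86%, 2.50%). The list was taken as written, and a role of LSM1A in splicing was not checked. AT3G24730, annotated as a U5 snRNP splicing factor, was not among the matched loci but held a member (25.7%, 2.9%). It was picked after its values were seen. The SR and hnRNP-like list had 1 of 32, the SR protein kinase gene FC1 (AFC1) with 8.89% in prmt5-5 and 0.535% in picln-1. The nonsense-mediated decay list had 0 of 15.

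The light, clock and flowering lists held 1 member each. The light signalling list had PHYD of 38 loci, a red-light receptor gene whose intron 1 of 3 had 26.7% in prmt5-5 and 4.76% in picln-1. The clock list had CKB4 of 32, a regulatory subunit of casein kinase II (9.18%, 1.90%), and the flowering list had ELF8 of 41, a subunit of the Paf1 complex (6.21%, 0%). All introns named from these lists were at 0% in WT.

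Host gene expression was read from the authors' gene tables, another readout of the same libraries. For prmt5-5, 58 of 388 hosts (14.9%, 11.6 to 18.9%) were listed as higher than in WT, where 4.99% of the 16747 genes tested were. As lower were listed 3 hosts (0.773%), against 4.15% of the genes tested. Hosts of the other listed introns gave 12.9% higher and 1.47% lower, so the members' hosts lay near them. Of the 17 members above 30% retention in prmt5-5, 8 had a host listed as higher (47.1%, 23 to 72.2%), and of the 204 hosts of members at 10% or less, 17 (8.33%). The median log2 change of the 58 was 0.74, against 0.80 for all genes listed as higher, in the authors' deposited table. No gene with a change smaller than 0.58 is listed, so the listed shares and both medians leave smaller changes out. Whether reads inside retained introns entered the gene counts is unknown here.

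The largest change among hosts was that of AT1G12730, whose expression was higher in prmt5-5 by 2.51 on the log2 scale (adjusted p = 1.96e-147 in the authors' deposited table) beside 47.4% retention of its intron 1 in prmt5-5 and 0% in WT. PRP40B followed with 2.09 (adjusted p = 1.7e-165 in the authors' deposited table) beside 7.86% retention in prmt5-5 and 0% in WT. The sugar transporter-like gene AT1G08890 was higher by 1.55, NTMC2T6.1 and the receptor kinase gene AT1G53430 by 1.16 each and the beta-amylase gene BMY2 by 1.15, values from the authors' deposited table. Retention in prmt5-5 ranged widely among them, with 5.88% in AT1G08890, 61.7% in NTMC2T6.1, 13.1% in AT1G53430 and 20.9% in BMY2. The 3 hosts listed as lower in prmt5-5 were the receptor kinase gene SERK2 (log2 change -0.69), the actin-capping gene CPB (-0.68) and AT1G56500 (-0.62) in the authors' deposited table.

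In picln-1, 4 of 388 hosts were listed, 1 higher and 3 lower, where 0.698% of 16473 genes tested were higher and 0.996% lower. These shares, 0.258% and 0.773% of hosts, lay near or below those backgrounds. SULTR4;2, whose intron was listed for picln-1, was higher in expression by 0.63 on the log2 scale in the authors' deposited table. SAC3A, named after a yeast factor of messenger RNA export (log2 change -0.60), AT4G19160 (-0.60) and AT3G27770 (-0.58) were lower in the authors' deposited table. Their introns had 11.7%, 8.84% and 8.75% in prmt5-5 and 0%, 1.05% and 2.09% in picln-1, in that order, and 0% in WT.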

How the data were processed

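RNA of 12 seedling libraries was compared. Per the submitters' processing notes, TopHat and TAIR10 were used. The counting and testing program is not given in the sources used. Per the file headers and the authors' description, each bin has a retained fraction per genotype, a log fold change of usage (mutant over WT), a p-value and an adjusted p. The fraction, with 1 value per genotype, was taken as pooled over libraries and is printed here as percent. That the adjustment is Benjamini-Hochberg was inferred from how adjusted and raw p-values relate by rank. The gene tables hold log2 fold changes and p-values by the authors. Base 2 was taken from the smallest listed change, 0.58. Bins are listed by the authors at an adjusted p below 0.15 and a change of the fraction above 0.05. Genes are listed at an adjusted p below 0.05, and none with a change smaller than 0.58, up or down. The retained fraction is read as the percent of junction reads with the intron kept; the headers name it without a formula.

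Planned edgeR tests need counts per library, which these tables do not hold, so the authors' calls were used. The number of features tested follows from how adjusted and raw p-values relate by rank. Introns were matched to RefSeq's TAIR10.1 annotation by start and end; intron number, UTR and frame refer to the first annotated transcript. Splice sites were scored by log2 of base frequency over 0.25 at each position. Intervals of medians are order-statistic and of shares Clopper-Pearson, at 95%, and treat introns as units. Recovery of test numbers (4 of 4 tables), introns and stops (200 of 200) and median intervals (974 of 1000) was checked on simulated data.

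The members, gene lists and named genes were chosen with earlier results of these data known. Named were the introns highest in each mutant, those with the smallest adjusted p, those in both tables, those on gene lists, the longest and shortest, hosts with 3 or more members and hosts with the largest expression changes. A single entry of a gene list is not reported here. Alternatives changed the WT limit, the adjusted p, the change limit, the tables joined, the intron match, the transcript and the number of introns per gene. Python 3.11.15, numpy 2.4.6, pandas 2.3.3, scipy 1.17.1 and matplotlib 3.10.9 were used.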

Additional observations from a re-analysis of the deposited data

How the results depend on the processing

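Across 94 recalculations of 13 results, 66 stayed close to the reported value and 28 moved. Requiring an adjusted p below 0.05 or 0.01, annotated introns, 1 intron per host gene or the transcript with the most introns moved none. With WT at most 1% there were 871 introns (840 listed for prmt5-5, 46 for picln-1) in 803 hosts, 104 of them listed for expression in prmt5-5, with medians of 9.01% in prmt5-5 and 112 bases. With a change of the fraction above 0.10 there were 198 introns (195 for prmt5-5, 5 for picln-1) in 191 hosts, 1 of them listed for expression in picln-1. Their medians were 16% in prmt5-5 and 2.06% in picln-1, and 98.5% were higher in prmt5-5. By the prmt5-5 table alone that share was 98.7%. By the picln-1 table alone there were 14 introns in 14 hosts, with medians of 3.68% in prmt5-5 and 8.93% in picln-1, and 28.6% were higher in prmt5-5. Their median length was 99 bases, 28.6% had a length divisible by 3, 78.6% lay in coding sequence, and 1 host was listed for expression in each mutant. The WT limit of 1% took in further introns, while the higher change limit and each table alone left members out. The 5' splice site score, an alternative added after seeing the data, moved to 4.67 bits with the change above 0.10 and to 5.63 bits for the picln-1 table alone. Leaving out replicates was not run, since the tables hold no values per library. No paired analysis was possible because the tables hold no values per library. Depth is unknown for every fraction.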

Other observations

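Exon-labelled bins at 0% in WT lay outside the rule. There were 4 among 174 exon-labelled bins of the prmt5-5 table, each with an intron retention event in the authors' deposited table, in AT1G63110, AT5G63440, AT1G23360 and AT3G57390. The picln-1 table held 1 among 56, an alternative 5' splice site in AT3G50500. Of the members, 2 lay over another annotated gene: that of AT1G09290 over AT1G09300 (9.80% in prmt5-5) and that of LSM1A over AT1G05463 (8.17% in prmt5-5). Whether counting used strand is unknown, so reads of the overlapping genes cannot be told apart. AT4G06598 held the member that matched no annotated intron.

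RNA polymerase, RNA processing and copper transport genes not yet described also held members, picked after their values were seen. The largest was in AT1G77890, annotated as an RNA polymerase II protein, with 27.8% in prmt5-5 and 9.80% in picln-1. The RNA polymerase III subunit gene NRPC2 had 27.3% in prmt5-5 and 0% in picln-1. HEN2, a helicase that works with the nuclear exosome, had 22.7% in prmt5-5 and 1.15% in picln-1. The copper transporter gene RAN1, which supplies ethylene receptors, had 19.8% in prmt5-5 and 1.10% in picln-1, and all 4 were at 0% in WT.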
